A study of Mus musculus with 8 samples.

Results

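Melanoblasts are the precursors of the pigment cells of skin and hair. Here they were taken as the cell barcodes, in any of 8 single-cell RNA libraries from embryonic mouse back skin, that held at least 500 detected genes, at most 20% of their UMIs (unique molecular identifiers, each standing for 1 captured RNA molecule) in mitochondrial genes, at least 5 UMIs of Pmel and Dct together, and at least 1 UMI of Mitf, Sox10, Kit, Mlana or Tyrp1. Of 8339 barcodes, 7930 passed the 2 quality limits and 57 of these (0.719%) met the whole rule. The cells were therefore chosen by their measured RNA, and Pmel, Dct, Mitf, Sox10, Kit, Mlana and Tyrp1 are described below without a test. The libraries came from dissected back skin, digested with collagenase and trypsin, on embryonic days 13 (E13) and 15 (E15). There was, for each of these ages, 1 wild-type library (WT), 1 library heterozygous for the ΔNp63-GFP knock-in (HET), and 2 libraries labelled as its knockout (KO 1 and KO 2). The allele is at Trp63, which encodes p63, a transcription factor needed to build the epidermis. WT and HET were combined as control (n = 4) and set against KO (n = 4). The labels do not say whether a library was 1 embryo or a pool, so p-values measure only the spread between these libraries.

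The libraries held 8177867 to 26456164 UMIs each. Their passing barcodes had median depths of 13102 to 18654 UMIs, and melanoblasts had 5651 to 64871 UMIs with a median of 15985. Trp63 stood at 85.5 to 218 CPM (a gene's UMIs as a share of all UMIs of a class of cells, the standard unit of counts scaled to library size) in epithelial barcodes of the control libraries and at 0 to 3.94 CPM in those of the KO libraries, as labelled. The melanoblasts held 1 Trp63 UMI in all, in E15 WT. All E13 libraries had Xist RNA (1141 to 1537 CPM) and all E15 libraries had RNA of Y-linked genes (126 to 151 CPM), so age and embryo sex cannot be told apart. In all, 42 barcode sequences occurred in more than 1 library, and none of them was a melanoblast. Values for single libraries are always given in 1 order: the E13 controls WT and HET, the 2 E13 KO libraries, the E15 controls WT and HET, and the 2 E15 KO libraries.

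Melanoblasts leave the neural crest, travel through the dermis and enter the epidermis and the forming hair follicles. Their master regulator is the transcription factor MITF, which works with SOX10 and PAX3 and drives genes of melanin synthesis and of the melanosome, the organelle in which pigment is made. Their survival and movement depend on the receptor KIT and its ligand, encoded by Kitl, and on the endothelin receptor encoded by Ednrb. Tyrosinase (Tyr) and the related enzymes encoded by Tyrp1 and Dct make melanin, and Pmel encodes the fibrous scaffold on which it is laid down. MITF binds an E-box, a short DNA motif. The next sequences show the 250 bases before the start of 5 pigment genes with values below, all of which hold the motif CATGTG. They run 5′ to 3′ on the gene's strand, and capitals mark each CATGTG or CACGTG on either strand (CATGTG reads CACATG on the other). They are RefSeq promoter sequences on GRCm38.p6.
Tyr (chr7:87493513-87493762, minus strand): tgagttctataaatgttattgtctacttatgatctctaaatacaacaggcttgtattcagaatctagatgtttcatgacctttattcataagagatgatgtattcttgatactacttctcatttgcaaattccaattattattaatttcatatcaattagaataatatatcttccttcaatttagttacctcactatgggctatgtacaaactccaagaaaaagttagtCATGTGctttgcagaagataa
Tyrp1 (chr4:80833963-80834212, plus strand): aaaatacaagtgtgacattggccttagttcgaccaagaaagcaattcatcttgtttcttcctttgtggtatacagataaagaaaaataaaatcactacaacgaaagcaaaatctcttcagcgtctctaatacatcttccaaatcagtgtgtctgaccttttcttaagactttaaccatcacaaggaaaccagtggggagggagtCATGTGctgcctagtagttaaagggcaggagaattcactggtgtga
Dct (chr14:118052247-118052496, minus strand): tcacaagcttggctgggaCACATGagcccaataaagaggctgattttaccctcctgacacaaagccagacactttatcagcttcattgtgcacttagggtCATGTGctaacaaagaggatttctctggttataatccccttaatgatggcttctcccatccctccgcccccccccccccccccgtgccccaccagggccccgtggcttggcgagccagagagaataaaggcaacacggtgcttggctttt
Slc24a5 (chr2:125067877-125068126, plus strand): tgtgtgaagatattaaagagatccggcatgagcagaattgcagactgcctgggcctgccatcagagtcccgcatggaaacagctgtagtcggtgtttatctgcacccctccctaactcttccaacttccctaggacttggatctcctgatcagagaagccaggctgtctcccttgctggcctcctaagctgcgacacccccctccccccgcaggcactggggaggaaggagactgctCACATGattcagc
Trpm1, first of 2 starts (chr7:64153585-64153834, plus strand): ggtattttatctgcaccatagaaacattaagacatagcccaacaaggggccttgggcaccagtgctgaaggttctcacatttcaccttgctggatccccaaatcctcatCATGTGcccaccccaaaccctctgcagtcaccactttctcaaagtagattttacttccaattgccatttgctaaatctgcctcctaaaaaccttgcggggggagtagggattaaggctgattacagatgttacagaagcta
All 5 windows hold CATGTG, Dct holds it at 2 places, and in each it lies within the longer TCATGTG. The 5 genes are among the 6 with TCATGTG counted below, so that they all hold it is no result. Gpnmb, whose values also carry results below, had a promoter entry with neither CATGTG nor CACGTG. Tyr has it 21 bases and Tyrp1 46 bases before the start. Of 26 pigment genes looked up, 20 matched a promoter entry, and 8 of these 20 had CATGTG in at least 1 window, 6 had TCATGTG and 5 had CACGTG. Over all 27018 genes with a promoter of this length, 13.9% had CATGTG, 3.72% had TCATGTG and 6.86% had CACGTG. A match in letters is a description and does not show binding.

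The label was checked against markers that the rule did not use. Tyr was detected in 52 of the 57 cells, Slc45a2 in 51, Gpnmb in 48 and Gpr143 in 33, all of which encode proteins of the melanosome or its contents. Among 6194 mesenchymal barcodes, a class that should lack these genes and had a similar median depth (15240.5 UMIs), Tyr was detected in 0.291%, Slc45a2 in 0.436%, Gpnmb in 1.15% and Gpr143 in 0.307%. The 4 genes were thus far above the level that free RNA gives. Pax3 and Ednrb, the transcription factor gene and the receptor gene named above, had UMIs in all 57 cells, against 0.533% and 3.42% of mesenchymal barcodes. The cartilage markers Col2a1, Col9a1, Matn1 and Acan had no UMI in any melanoblast.

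The threshold of 5 UMIs fell in an empty stretch. No barcode had 4 to 9 UMIs of Pmel plus Dct. The lowest members had 11, 11 and 12, and the highest barcodes below had 3, which 7 barcodes reached. Another 53 barcodes had 2 UMIs and 649 had 1, and in single libraries 2.68% to 22.3% of all other barcodes had a Pmel or Dct UMI. In all, 5 cells also carried at least 20 UMIs of another type's markers. A cell of E13 HET had 251 macrophage UMIs. In E13 KO 2 the deepest cell, with 64871 UMIs, had 86 epithelial and 46 mesenchymal UMIs. In E15 HET, 2 cells had 441 and 283 mast cell UMIs, including the mast cell protease gene Cpa3 at 56 and 40 UMIs. The E15 KO 2 library had a cell with 146 mesenchymal UMIs and 153 of the collagen gene Col1a2. Several results below are also given without these 5 cells. Red cell RNA (5 haemoglobin genes and Alas2) was not part of that count. It made up 2027 to 5584 CPM of the melanoblasts of the other 7 libraries and 191225 CPM of those of E15 KO 2, where 8930 of the 18120 UMIs of 1 of the 2 cells came from it. It stays in the total of E15 KO 2, which lowers the CPM of other genes there. No value or order of libraries below was recalculated without it.

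Melanoblasts were found in every library and were fewest in the E15 KO skin. The counts were 12, 12, 4, 6, 9, 11, 1 and 2 cells. As a share of passing barcodes these were 1.29%, 0.984%, 0.362%, 0.821%, 1.62%, 1.19%, 0.0956% and 0.140%. Every control library lay above every KO library, and the nearest pair was E13 HET with E13 KO 2. The counting intervals are wide: for E13 HET the exact 95% Clopper-Pearson interval ran from 0.509% to 1.71%, and for E15 KO 1 from 0.00240% to 0.531%. Intervals and limits of this kind cover counting error only. The KO mean was 0.355% ± 0.332 (SD, n = 4) and the control mean 1.27% ± 0.267 (SD, n = 4), a difference of -0.919 percentage points (exact permutation test, two-sided, p = 0.0286). That is the smallest p that 4 against 4 libraries can give, and over the 3 shares tested here it became 0.0857. Within ages the KO and control means were 0.591% and 1.14% at E13, and 0.118% and 1.41% at E15, and permuting labels within age gave an exact permutation p of 0.0556, the smallest possible there. Without any 1 control library, the exact permutation p was 0.0571.

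**Figure D1:**
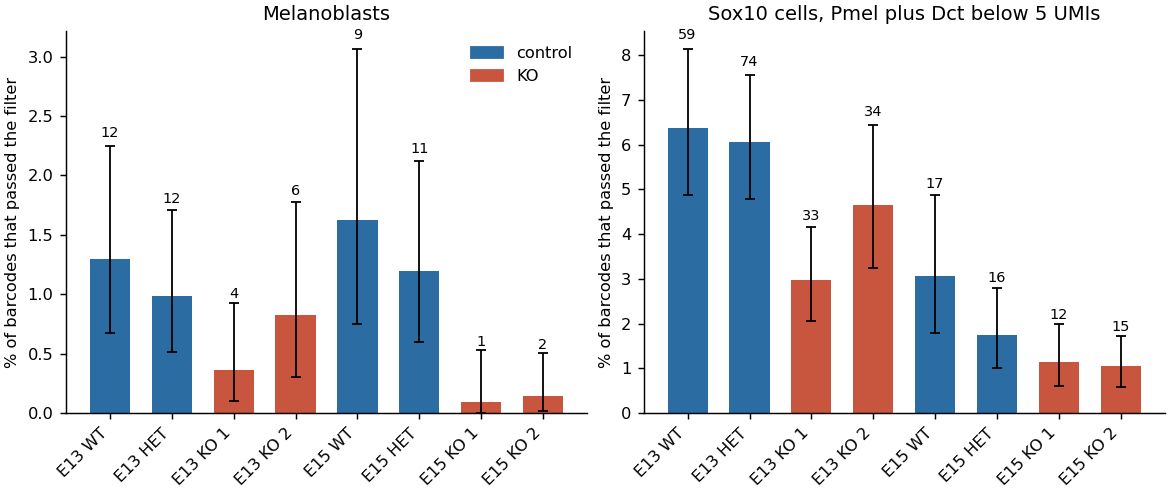
Share of passing barcodes per library (y axis, %) that were melanoblasts (left) or Sox10 cells with less than 5 UMIs of Pmel plus Dct (right), with the number of cells above each bar and exact 95% binomial intervals. The 4 control libraries lie between 0.984% and 1.62% in the left panel, above the 4 KO libraries at 0.0956% to 0.821%.

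A share can move with the rest of the tissue, so melanoblasts were also set against other cells. The comparison class was the 260 passing barcodes with at least 1 Sox10 UMI and less than 5 UMIs of Pmel plus Dct. SOX10 is also the regulator of Schwann cells, the glia of nerves, and 142 of the 260 had at least 3 of 8 glial markers, whereas only 118 had 2 or more Sox10 UMIs. The class is therefore mixed, and marker RNA of mesenchymal cells stood in it at 1135 to 3341 CPM. Sox10 cells made up 6.36%, 6.07%, 2.98%, 4.65%, 3.07%, 1.74%, 1.15% and 1.05% of passing barcodes. The KO mean was 2.46% ± 1.71 and the control mean 4.31% ± 2.27 (SD, n = 4 each, exact permutation p = 0.2). The groups overlapped, and the share was lower at E15 than at E13 in both arms. Within each age both control libraries lay above both KO libraries, and permuting labels within age gave an exact permutation p of 0.0556, the smallest possible there, as for melanoblasts. Melanoblasts as a share of melanoblasts plus Sox10 cells were 16.9%, 14.0%, 10.8%, 15.0%, 34.6%, 40.7%, 7.69% and 11.8%. At E13 the control and KO means were 15.4% and 12.9%, and at E15 they were 37.7% and 9.73%. The pooled difference was -15.2 percentage points (exact permutation p = 0.0571, 0.0857 over the 3 shares, and 0.111 permuted within age). Per 100 epithelial barcodes there were 8.76, 9.16, 4.08, 4.80, 33.3, 32.4, 6.25 and 3.92 melanoblasts, so the control and KO libraries did not overlap on that scale within either age.

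Set against Sox10 cells, melanoblasts had more RNA of genes of melanin synthesis and the melanosome. They had less of genes of glia, of migrating nerve-associated cells and of mesenchymal cells. The ratio was taken within each of the 5 libraries with at least 5 cells of both classes (E13 WT, E13 HET, E13 KO 2, E15 WT and E15 HET), on CPM with 5 CPM added. Because Pmel, Dct and Sox10 UMIs divide the 2 classes, it is a description. Of 12056 genes, 265 (2.2%) were over 2-fold higher and 868 (7.2%) over 2-fold lower on average with the same sign in 5 of 5 libraries. Of 20 genes of a melanin and melanosome list, 12 were higher and 1 lower, with a median log2 ratio of 1.86 against -0.16 over all genes. The 1 lower gene was Fabp7, a fatty acid binding protein gene that is also on the glial list. Of 24 genes of a glia and Schwann precursor list, 18 were lower and 1, Ednrb, was higher, with a median of -1.91. All 8 mesenchymal markers were lower too, with a median of -2.47. The part that mesenchymal RNA in the Sox10 cells has in the ratios of other lower genes was not tested.

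Among the enzymes and transporters, Tyr was at 221, 74.8, 217, 147 and 205 CPM in the melanoblasts of these 5 libraries and at 0 in the Sox10 cells of all 5. Its mean log2 ratio was 5.06 ± 0.64 (SD, n = 5), a value that depends on the 5 CPM added. Slc45a2, a melanosome transporter gene, had a mean of 206 CPM in melanoblasts and 0.130 in Sox10 cells. Gpnmb, a melanosome glycoprotein gene, had 437 and 0.136 CPM, and Trpm1, a cation channel gene named for melanoma, had 343 and 1.17 CPM. Slc24a5, which encodes the exchanger whose loss lightens pigment, had 574 and 32.1 CPM, and it had a UMI in 22.2% of mesenchymal barcodes too. Among genes outside the rule, the largest ratio belonged to Ptgds, the gene of a prostaglandin D2 synthase, at 942, 818, 2560, 2662 and 2974 CPM in melanoblasts and 0.7, 1.3, 2.0, 0 and 8.4 in Sox10 cells (log2 ratio 7.96 ± 0.83). The remaining 9 of the 15 genes outside the rule with the highest ratios were Bace2, a protease gene, Mcoln3, a channel gene of endosomes, and Syngr1, Mgll, St3gal6, Bhlhe41, Uap1l1, Tspan10 and Syt4, with log2 ratios of 5.88 to 3.66. At the other end, Gap43, a growth cone gene, was at 12.7 CPM in melanoblasts and 623 in Sox10 cells. Gfra3, a co-receptor gene of neurotrophic factors, at 1.40 and 158 CPM, and Dkk2, a Wnt inhibitor gene, at 3.05 and 134 CPM were likewise lower.

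**Figure D2:**
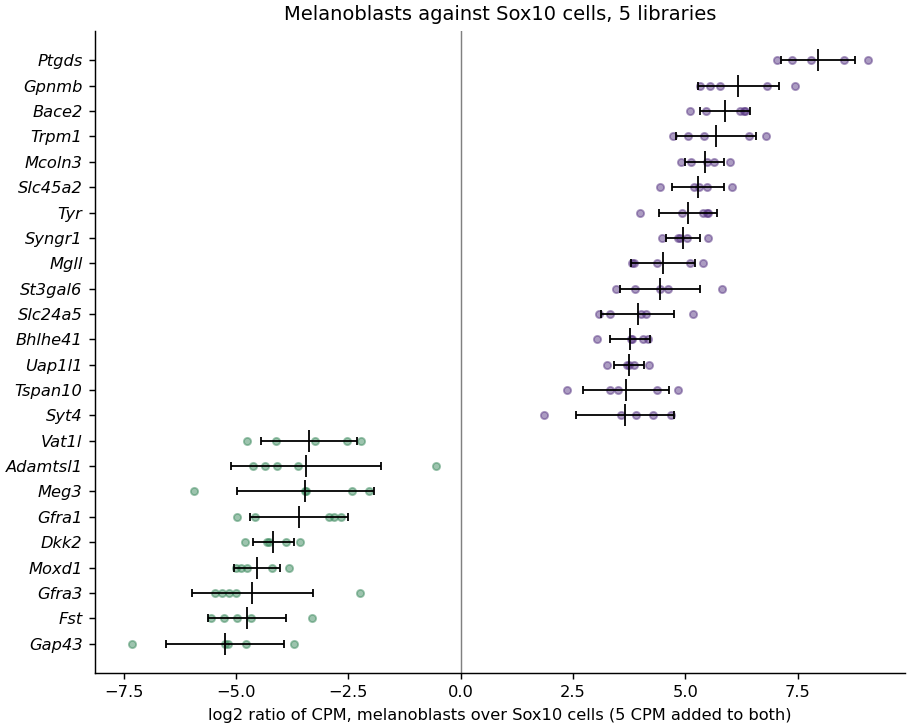
Log2 ratio of CPM in melanoblasts over Sox10 cells (x axis, 5 CPM added to both), for the 15 genes with the highest and 9 of the 10 with the lowest mean ratio among those over 2-fold apart, the genes of the rule left out. Points are the 5 libraries, and bars are the mean ± SD: Ptgds lies furthest to the right at 7.96 and Gap43 furthest to the left.

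Of 20 transcription factor genes, 4 were higher in melanoblasts (Pax3, Tfap2a, Ets1 and Tfeb) and 8 lower (Sox9, Foxd3, Snai2, Zeb1, Zeb2, Tcf4, Id1 and Id3). Pax3 was at 296 CPM on average against 61.3 in Sox10 cells, and Tfap2a, a partner of MITF at pigment genes, at 171 against 28.1. Zeb2 and Zeb1 encode related repressors, and both were lower, with log2 ratios of -1.12 and -1.40. Among 18 receptor genes, Ednrb (1.11 ± 0.64) and Mc1r, the receptor that switches melanin type (3.17 ± 0.61), were higher and 6 were lower, among them Ngfr, a receptor of nerve growth factors, at -3.32. Cxcr4, a receptor of migrating cells for the ligand encoded by Cxcl12, had no UMI in any of the 57 cells. The E-cadherin gene Cdh1, an adhesion gene that melanoblasts share with keratinocytes, was at 53.2, 66.5, 119, 114 and 114 CPM against 16.9 to 28.6 in Sox10 cells (log2 ratio 1.76 ± 0.67), and the N-cadherin gene Cdh2 was lower at -1.27. The E13 KO 2 value of Cdh1 includes the cell with epithelial RNA. Of 20 genes for the complexes that sort cargo to melanosomes, only Dtnbp1, a subunit of the BLOC-1 complex, was over 2-fold higher with the same sign in all 5 libraries (1.93 ± 0.33), and none was lower by that measure. Hps4, at 1.36 ± 1.38, was over 2-fold higher on average without the same sign in all 5. Phlda1, a gene that responds to growth factor signalling, had UMIs in all 57 cells and was at 1102 CPM against 160 (2.79 ± 0.70).

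The melanoblasts differed widely among themselves in how much pigment RNA they held. Pmel plus Dct made up 0.0288% to 2.79% of a cell's UMIs, with a median of 0.784%. In the E13 control libraries 19 of 24 cells had 0.0288% to 0.552% and 5 had 1.25% to 2.60%, with none between. All 10 E13 KO cells had at least 0.486%, and 8 of them had over 1%. The E15 control cells were spread more evenly from 0.0996% to 2.20%, or from 0.307% without the 2 cells with mast cell RNA, and the 3 E15 KO cells had 1.36%, 1.59% and 2.79%. For description, cells were divided at 1%, a limit chosen after these values were seen. It marks a range and not a cell type: 12 cells lay between 0.75% and 1.25%, and 11 of these were E15 control cells. Cells over 1% numbered 4, 1, 3, 5, 5, 4, 1 and 2, and cells under 1% numbered 8, 11, 1, 1, 4, 7, 0 and 0. As a share of passing barcodes, cells under 1% were 0.863%, 0.902%, 0.0904%, 0.137%, 0.722% and 0.759% in the 6 libraries that had any. Those over 1% were 0.431%, 0.0820%, 0.271%, 0.684%, 0.903%, 0.434%, 0.0956% and 0.140%. Pmel, which is part of this measure, was higher in every KO library (values below), so the numbers of KO and control cells in the 2 ranges are a description and were not compared.

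**Figure D3:**
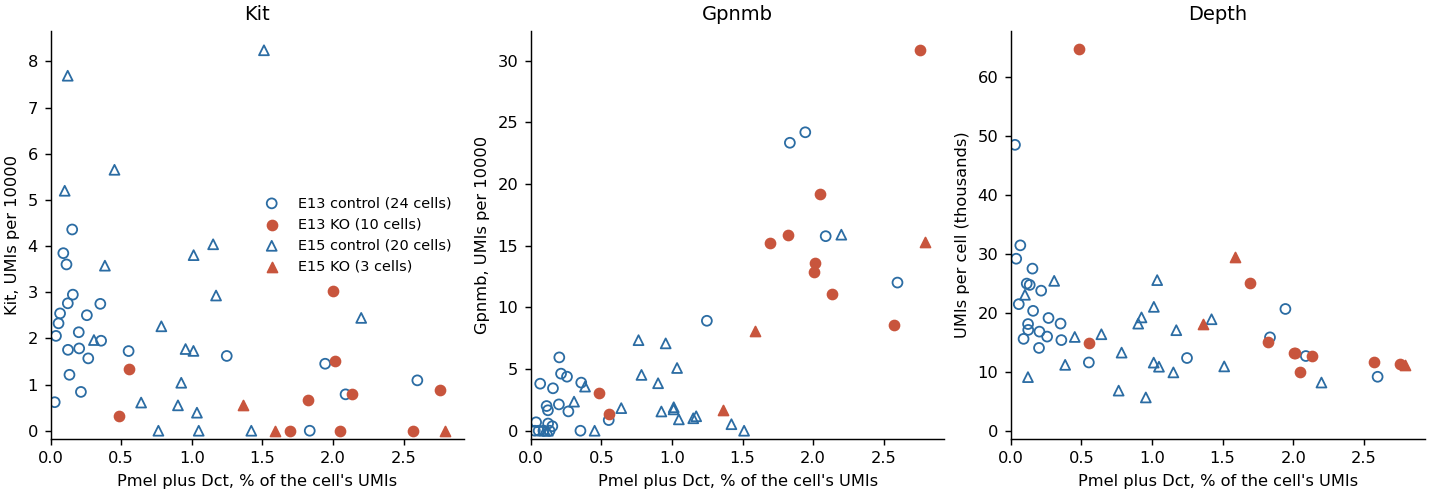
Each point is 1 melanoblast: Pmel plus Dct as % of the cell's UMIs (x axis) against Kit (left) and Gpnmb (middle) as UMIs scaled to the cell's depth, and the depth itself in UMIs (right). Most E13 control cells lie under 0.552% on the x axis, with 5 from 1.25% upwards, and 11 of the 13 KO cells lie over 1%.

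Other genes moved with this range in the E13 control cells. Kit, the receptor gene, was at 220 CPM in the 19 lower cells (95% Poisson interval 177 to 270) and at 99.0 in the 5 higher ones (39.8 to 204). Gpnmb was at 174 and 1824 CPM, Trpm1 at 145 and 495, Tyr at 101 and 424, and Ednrb at 234 and 1032 CPM in the same 2 sets. So the higher cells held more RNA of several pigment genes that the rule did not use, and of the endothelin receptor. Of the 5 higher cells, 4 came from E13 WT, with 58381 of their 70728 UMIs. E13 HET gave 11 of the 19 lower cells, so range and library are partly mixed. The sums and correlations treat cells of both libraries alike and do not measure the spread between libraries. Ptgds was at 522 and 2983 CPM, and Rab38, a gene for melanosome transport, at 16.9 and 226. The lower cells held more RNA of other genes. The metallothionein genes Mt1 and Mt2, for small metal-binding proteins, were at 1574 and 623 CPM in them against 467 and 14.1 in the higher cells. The LIM-domain cofactor gene Lmo4 was at 790 and 212 CPM. Npy, a neuropeptide gene, was at 212 CPM in the lower cells and had no UMI in the 5 higher cells, which allows up to 42.4 CPM. Fabp7 was at 113 and 14.1 CPM, and Hes1, a target of Notch signalling, at 164 and 14.1. Lmo4 and Npy, and Col14a1 below, were singled out after their values were seen. Over the 24 cells the Spearman correlation with the Pmel and Dct share was -0.464 for Kit, 0.699 for Gpnmb, 0.770 for Mlana and -0.541 for Lmo4. Without the cell with macrophage RNA these 4 values were -0.644, 0.671, 0.769 and -0.621. The correlation over the 24 cells was -0.697 for the cell's depth (-0.656 without that cell), the lower cells having a median of 19143 UMIs and the higher ones 12686. The part of depth in these relations was not tested. In the 20 E15 control cells the same correlations were -0.169 for Kit (0.059 without the 2 cells with mast cell RNA), 0.075 for Gpnmb (-0.226 without them), 0.376 for Mlana (0.183 without them) and 0.226 for Lmo4 (0.135 without them). Those of Ptgds and Trpm1 were 0.737 and 0.656 (0.668 and 0.660 without them).

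The KO melanoblasts had levels near those of the higher cells in some of these genes and not in others. Of the 10 E13 KO cells, 8 were themselves over 1%, and these genes moved with that share in control cells. A likeness in them is therefore partly given by the share, and it is only a description. Summed over the 10 E13 KO cells, Gpnmb was at 1027 CPM, Trpm1 at 730, Ptgds at 2757, Rab38 at 203 and Kit at 67.7, beside the 5 higher and 19 lower control values above. Col14a1, a fibril-associated collagen gene, was at 7.24, 269 and 292 CPM in the lower control, higher control and KO cells. Fabp7 and Npy had no UMI in the 10 KO cells, which allows up to 15.6 CPM. Mdk, the gene of the growth factor midkine, was above both control sets in KO, with 324, 551 and 1219 CPM, and so was Cdkn1c, a gene for a cell cycle inhibitor, with 106, 84.8 and 453 CPM. Mdk and Cdkn1c, like Trpm1 and Ptgds, are among the 15 genes that passed between KO and control below. That test used these same cells, so their higher KO level here is no separate result. Ednrb was at 453 CPM in the KO cells, between the 2 control sets. The cell of E13 KO 2 with epithelial and mesenchymal RNA supplied 64871 of the 191908 UMIs of the 10 KO cells. Without it, the remaining 9 KO cells had 1393 CPM of Gpnmb, 976 of Trpm1, 3125 of Ptgds, 291 of Rab38 and 86.6 of Kit. They had 401 CPM of Col14a1, 1126 of Mdk and 645 of Ednrb, and Cdkn1c was at 283 CPM in place of 453. These are sums over few cells from 2 libraries each, with no test, and 4 of the 5 higher control cells came from E13 WT.

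Among the genes of the rule, the measured CPM of Pmel and Tyrp1 lay higher and that of Kit lower in every KO library than in any control library. For Tyrp1 and Kit some of these values rest on 0 or 1 UMI. The other genes of the rule overlapped between the arms. Pmel (chr10:128704195-128720238) was at 2883, 1167, 9628, 6846, 3142, 2792, 14230 and 8071 CPM, every KO library above every control library. Dct was at 2990, 1134, 7885, 6123, 6325, 4946, 13690 and 6960 CPM, so that E15 WT lay above E13 KO 2. Mlana, the gene of a melanosome protein, was at 438, 382, 1074, 1101, 895, 678, 901 and 482 CPM, and E15 KO 2 lay within the control range. Kit (chr5:75574916-75656722) was at 225, 179, 101, 56.1, 244, 262, 0 and 21.0 CPM, every KO library below every control library, though the 0 UMIs in the single cell of E15 KO 1 allow up to 270.2 CPM (3 UMIs). The 2 E15 HET cells with mast cell RNA held 12 and 7 Kit UMIs, and mast cells also express Kit. Without such cells the E15 control cells under 1% had 197 CPM of Kit in place of 274. Tyrp1, the enzyme gene that marks maturing pigment cells, had UMIs in 9 cells. These were 8 of the 13 KO cells and 1 of the 44 control cells, against 0.225% of KO and 0% of control mesenchymal barcodes. Its levels were 0, 0, 20.3, 168, 0, 5.70, 360 and 1467 CPM. The values of E13 KO 1 and E15 HET are 1 UMI each. The 0 UMIs in E15 WT allow up to 24.4 CPM, above the E13 KO 1 value, so the arms are not clearly apart for Tyrp1. Mitf and Sox10 overlapped between the arms, with 238 to 973 CPM of Mitf in KO and 204 to 352 in control, and 83.9 to 360 CPM of Sox10 in KO and 141 to 374 in control.

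Genes outside the rule could be tested between KO and control melanoblasts only where a library with at least 3 melanoblasts was enough, since just 1 KO library had at least 5. The test used 6 libraries: the 4 of E13 and the 2 E15 controls. Age was in the model and no E15 KO library entered, so the KO change compares KO with control at E13. The E15 controls add to the estimate of the spread. Of 2853 genes, 15 passed edgeR's quasi-likelihood test at an adjusted p of 0.05 (0.526%), 11 higher and 4 lower in KO, and 306 had an unadjusted p under 0.05. All values below are log2 fold changes with the SE derived from the test. In the 6 tested libraries the arms did not overlap in 14 of the 15 genes, against 21.3% of all 2853. These 6 libraries also chose the 15 genes, so the 14 are a description. With the E15 KO libraries, which hold 1 and 2 cells, they did not overlap in 9 of the 15, against 6.8% of all genes tested. The 6 libraries that chose the genes are part of these 8, so the 9 are a description too. Red cell RNA lowers the E15 KO 2 values that enter the counts over 8 libraries, and these counts were not recalculated without it. Of all 2853 genes, 608 did not overlap in the 6 libraries and 194 in all 8. The 9 were Cdkn1c, Chchd10, Fabp5, Gjb2, Mfap2, Mt1, Mt2, Tmem51 and Vim. Ptgds (chr2:25466709-25470046), at levels of 942, 818, 3324, 2560, 2662, 2974, 6395 and 1279 CPM, had the smallest p (1.71 ± 0.19, edgeR adjusted p = 0.0015), and the E15 controls lay within its KO range.

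Pigment genes were among those that rose. Trpm1 was at 209, 183, 932, 659, 423, 239, 1261 and 356 CPM (1.96 ± 0.30, edgeR adjusted p = 0.0103), and E15 KO 2 lay under E15 WT. Slc24a5 was at 483, 336, 1277, 856, 602, 593, 1261 and 587 CPM (1.32 ± 0.25, edgeR adjusted p = 0.0337), with E15 KO 2 just under both E15 controls. Red cell RNA at 191225 CPM lowers the E15 KO 2 values of both genes. These orders may therefore not hold without it, and they were not recalculated. Of 13 tested genes of the melanin and melanosome list these 2 rose and none fell, the median was 1.32 against -0.03 over all genes tested, and 10 were positive. Members that did not pass included Slc45a2 (1.42 ± 0.36), Gpnmb (1.44 ± 0.40), Tyr (0.96 ± 0.45) and Rab38 (2.11 ± 0.50, edgeR adjusted p = 0.0794). Slc45a2 passed without the 5 cells that carried other types' RNA (1.51 ± 0.31, edgeR adjusted p = 0.0465). Fabp7 had no UMI in either E13 KO library, against 102 and 95.5 CPM in the E13 controls, with an edgeR adjusted p of 0.0555.

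Besides Ptgds, Trpm1 and Slc24a5, 8 genes rose, none of them on a list used here. Mdk was at 328, 386, 1378, 1164, 301, 148, 1351 and 335 CPM (1.80 ± 0.28, edgeR adjusted p = 0.0103), with E15 KO 2 inside the control range. Red cell RNA lowers this E15 KO 2 value too, so that place may not hold without it and was not recalculated. Cdkn1c was at 106, 99.7, 284, 512, 65.1, 74.1, 180 and 1006 CPM (2.04 ± 0.33, edgeR adjusted p = 0.0121). Mfap2, a microfibril gene, rose by 1.92 ± 0.36, and Igsf8, a gene of an immunoglobulin superfamily membrane protein, by 1.74 ± 0.32. The remaining 4 rose from low levels: Gjb2, a gap junction gene, by 2.57 ± 0.46, Tmem51 by 2.29 ± 0.40, Spint2, a protease inhibitor gene, by 3.43 ± 0.63, and Chchd10, a mitochondrial protein gene, by 3.92 ± 0.77. Without the cells that carried other types' RNA, Spint2, Gjb2, Cdkn1c, Mfap2 and Mt1 had edgeR adjusted p-values of 0.0538 to 0.0890, and 30 genes passed in all. Spint2 is also an epithelial gene, and the summed epithelial markers were at 722 CPM in E13 KO 2 and 41.9 to 171 CPM in the other 7 libraries.

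Metallothionein genes were among those that fell. Mt2 was at 500, 569, 20.3, 77.2, 912, 570, 90.1 and 21.0 CPM (-3.12 ± 0.43, edgeR adjusted p = 0.00733), and Mt1 at 1380, 1446, 405, 428, 2426, 1390, 811 and 440 CPM (-1.76 ± 0.28, edgeR adjusted p = 0.0111). In both genes the highest KO library lay under the lowest control library. Mt2 also had a UMI in 30.7% of mesenchymal barcodes. Fabp5, a fatty acid binding protein gene, was at 1565, 1911, 730, 400, 1091, 1162, 270 and 419 CPM (-1.74 ± 0.26, edgeR adjusted p = 0.0103). Vim, the vimentin gene, fell by 0.98 ± 0.19, from 3843 to 5625 CPM in control to 1572 to 3513 in KO. The cycle lists held no gene that passed: of 30 tested genes of G2 and M phase the median was -0.66 with 2 positive, and of 22 of S phase it was -0.13 with 9 positive. Mki67 or Top2a, both made by dividing cells, had a UMI in 22 of 24 E13 control cells and 7 of 10 E13 KO cells, whose median depths were 18153.5 and 13226 UMIs. For glial markers, 18 of 24 E13 control cells and 1 of 10 E13 KO cells had at least 3 of 8, at those depths, with no test. None of 8 transcription factor, 3 receptor, 7 adhesion or 5 glial genes tested passed. The calls rest on 1 library more than on the rest, since without E13 KO 2 only Ptgds passed, whereas 80 genes passed without E13 WT, 65 without E13 HET and 31 without E15 HET. All 15 genes kept their sign in every alternative in which they were tested.

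**Figure D4:**
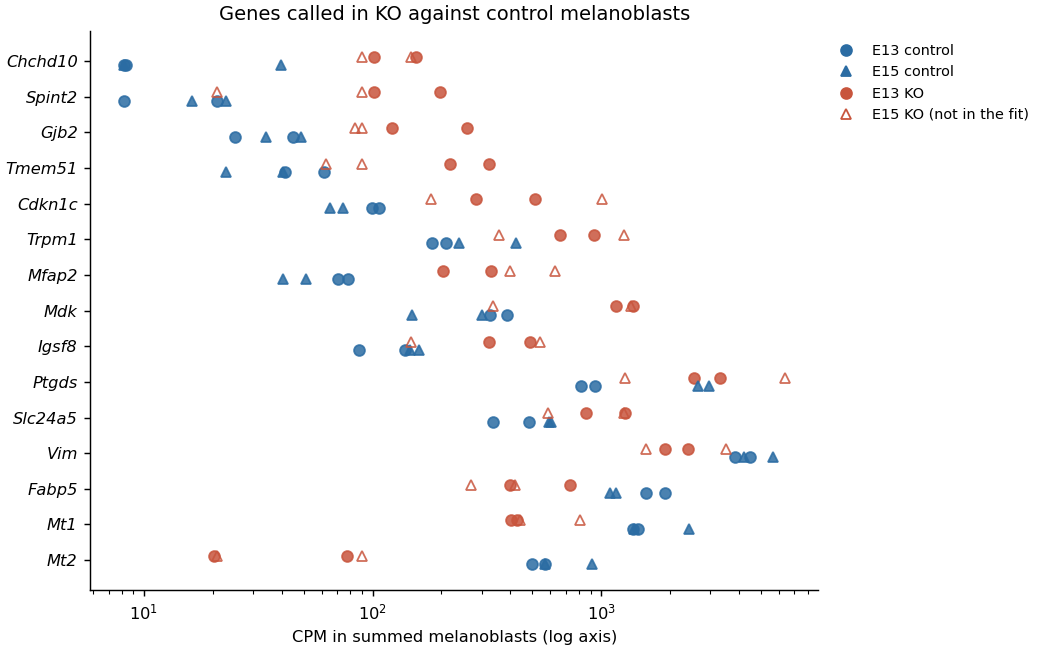
CPM of the 15 genes that passed in KO against control melanoblasts (x axis, log scale), 1 point per library. Filled points entered the test, and open triangles are the E15 KO libraries with 1 and 2 cells. For Mt2 the 4 KO libraries lie at 20.3 to 90.1 CPM and the 4 control libraries at 500 to 912 CPM.

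Between E13 and E15, in the 5 libraries with at least 5 melanoblasts, 4 of 3777 genes passed edgeR's test (0.106%), 2 in each direction, and 425 had an unadjusted p under 0.05. E13 KO 2, the only KO library among them, has its own arm term, so the age change compares the E15 controls with the E13 controls. Ptgds rose (1.83 ± 0.16, edgeR adjusted p = 0.000525), from 818 and 942 CPM in the E13 controls to 2662 and 2974 in the E15 controls. Rpl39, a ribosomal protein gene, rose by 0.96 ± 0.15 (edgeR adjusted p = 0.0462). The genes that fell were Xist, the RNA of the inactive X chromosome, which was near 0 in all E15 libraries, and Hbb-y, an embryonic haemoglobin gene, at 765 to 1840 CPM at E13 and 16.3 and 74.1 CPM at E15. Haemoglobin is made by red cells, and the part of free RNA in the Hbb-y value was not tested. Mc1r was at 41.0, 20.8, 60.8 and 56.1 CPM at E13 and 122 and 96.9 CPM in the E15 controls (1.93 ± 0.45, edgeR adjusted p = 0.118). Nkd1, a target and inhibitor of Wnt signalling, was at 250 and 162 CPM in the E13 controls and 65.1 and 62.7 in the E15 controls (-1.53 ± 0.36, edgeR adjusted p = 0.121). Without the cells that carried other types' RNA, 81 genes passed, Mc1r (edgeR adjusted p = 0.0268) and Nkd1 (0.0352) among them. None of 14 genes of the melanin and melanosome list passed, with a median of 0.15 against -0.03 over all genes. Of the rule's genes, Dct was higher at E15 in the controls, at 6325 and 4946 CPM against 2990 and 1134, and Pmel was at 3142 and 2792 against 2883 and 1167.

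The signals that melanoblasts receive were read in the neighbouring cells. Epithelial barcodes (619, at least 5 of 12 epithelial markers) and mesenchymal barcodes (6194, at least 4 of 8 mesenchymal markers) were summed per library and tested with edgeR over all 8 libraries. In epithelial barcodes 1760 of 11217 genes passed (15.7%), and in mesenchymal barcodes 124 of 13651 (0.908%). Kitl (chr10:100015630-100100416), the ligand of KIT, fell in KO epithelial barcodes (-2.17 ± 0.50, edgeR adjusted p = 0.0158). Its levels there were 31.9, 37.8, 1.53, 6.78, 18.2, 56.6, 18.0 and 23.1 CPM. The arms did not overlap at E13 and did at E15, where the E15 WT value rests on 10 UMIs. In mesenchymal barcodes Kitl was at 24.9, 20.9, 16.5, 19.6, 113, 83.9, 113 and 130 CPM, higher in every E15 than in every E13 library, with 0.04 ± 0.16 between KO and control (edgeR adjusted p = 0.95). Without E13 KO 2 the epithelial value was -2.15 with an edgeR adjusted p of 0.0676.

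Of the other ligand genes of epithelial barcodes, 3 Wnt genes fell and Igf1, an insulin-like growth factor gene, rose. Wnt3a was at 39.3, 19.0, 0, 0, 7.28, 2.22, 0 and 0 CPM (edgeR adjusted p = 0.000728). Wnt10b fell by 2.86 ± 0.38 (edgeR adjusted p = 0.000876) and Wnt4 by 1.01 ± 0.24 (0.0172). Igf1 rose by 1.40 ± 0.30 (0.0111). Edn3, the ligand of the receptor encoded by Ednrb, was at 10.2, 9.32, 27.8, 27.9, 0, 6.66, 0 and 1.22 CPM (1.10 ± 0.45, edgeR adjusted p = 0.130). At E13 both KO libraries were above both controls. The value depended on the processing. With each library left out it ran from 0.79 to 1.42, with edgeR adjusted p-values from 0.484 to 0.00213, the lowest without E15 HET. DESeq2 gave 0.40 (DESeq2 adjusted p = 0.776), and no low-count filter gave 1.07 (edgeR adjusted p = 0.00601). In all, 13 ligand genes were tested in epithelial barcodes, 1 rose and 4 fell. In mesenchymal barcodes 1 of 16 passed, Wnt7b, which fell (-2.49 ± 0.43, edgeR adjusted p = 0.0358). Trp63 itself, an epithelial gene, also fell in mesenchymal barcodes (-4.60 ± 0.61, edgeR adjusted p = 0.0165), and the part of free epithelial RNA in the Wnt7b value was not tested. Edn3 in mesenchymal barcodes was lower in all 4 KO libraries than in the 4 controls (-0.70 ± 0.16, edgeR adjusted p = 0.0897). Whether ligand levels and melanoblast numbers are linked was not tested.

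**Figure D5:**
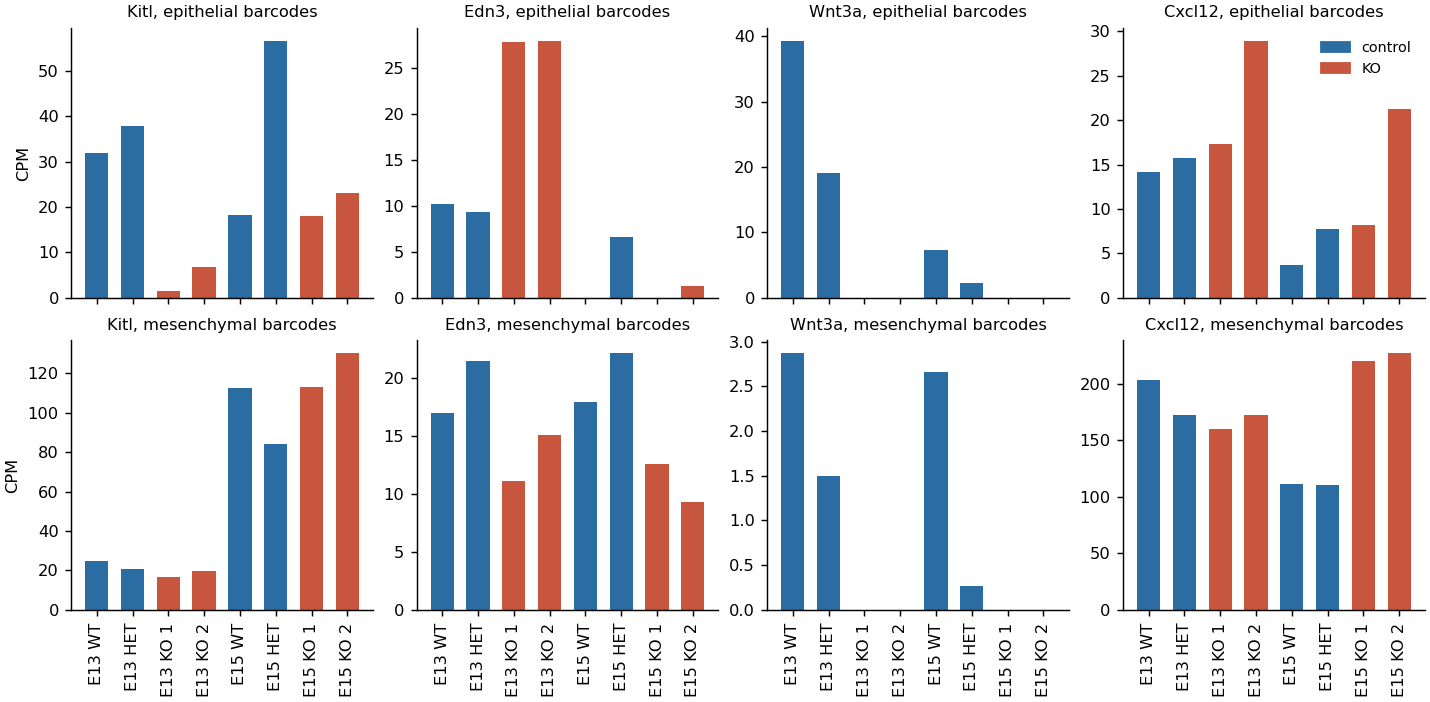
CPM (y axis) of 4 ligand genes in epithelial (top) and mesenchymal (bottom) barcodes of the 8 libraries. Kitl in epithelial barcodes stands at 31.9 and 37.8 CPM in the E13 controls and at 1.53 and 6.78 in the E13 KO libraries, and Wnt3a is at 0 in all KO libraries.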

How the data were processed

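The 8 libraries were made with a 10x 3′ kit. The deposited files hold UMI counts per gene and barcode for 27998 genes, made by the authors with Cell Ranger on mm10, and Seurat is also named, per the submitters' processing notes, which give no versions. The gene identifiers and barcodes are those deposited by the authors. The melanoblast rule, the gene lists and the tests were chosen with earlier results of these data known. Doublets were not removed, and 2 melanoblasts were among the barcodes with the highest scrublet scores.

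UMI counts were summed per library and class and tested with edgeR 4.0.16 (quasi-likelihood, TMM, filterByExpr with a minimum count of 10, Benjamini-Hochberg adjustment over all genes tested) in R 4.3.3. The SE is the log2 fold change divided by the square root of F. The minimum of 5 melanoblasts per library that had been planned left 1 KO library, so a minimum of 3 was used for KO against control. The E15 against E13 test kept 5, and 10 barcodes were needed for epithelial and mesenchymal sums. Shares were compared by exact two-sided permutation tests over libraries. The ratio to Sox10 cells used a pseudocount of 5 CPM. Any gene of the lists could be named. Beyond them, the 15 highest and 10 lowest ratios to Sox10 cells outside the rule's genes were named, and up to 12 rises and 12 falls that passed with groups that did not overlap. Ptgds under KO and Xist, outside that rule there, were named after their values were seen. Of the 10 lowest ratios, 1 is not reported here. Gene coordinates are from GENCODE M21 on GRCm38. Alternatives were DESeq2 1.42.0, no low-count filter, other cell limits, cells thinned to 3000 UMIs, removal of high doublet scores, and leaving out each library. The testing code was checked on simulated counts.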

Additional observations from a re-analysis of the deposited data

Results flagged for a closer look

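In 40 sets of 4 libraries of 1 arm, the highest or lowest library was compared with the rest, and chance alone marks about 1 in 20 such sets. Tyrp1 in control melanoblasts stood out because E15 HET had 5.70 CPM and the other 3 controls had 0; this is a single cell with the gene. Gpnmb in control melanoblasts stood out because of E13 WT at 631 CPM, the library with 4 of the 5 E13 control cells in which Pmel plus Dct passed 1% of UMIs.

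Both other results are ligand genes in mesenchymal barcodes whose KO and control libraries were ordered one way at E13 and the opposite way at E15. For Kitl the KO mean minus the control mean was -4.82 CPM at E13, and at E15 both KO libraries, at 113 and 130 CPM, were at or above the controls at 113 and 83.9 CPM. For Cxcl12 it was -21.6 CPM at E13, and at E15 the KO libraries had 220 and 227 CPM against 112 and 110 CPM in the controls. Neither difference between ages was tested.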

How the results depend on the processing

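The lower melanoblast share in KO was -0.919 points with an exact permutation p of 0.0556 when labels were permuted within age, and -1.07 to -0.802 points with each library left out. The Sox10 share difference ran from -2.71 to -1.16 points with each library left out and was -0.984 points with at least 2 Sox10 UMIs. The melanoblast share of melanoblasts plus Sox10 cells reached an exact permutation p of 0.0286 without the highest doublet scores (-15.0 points) and without the 5 cells carrying other types' RNA (-15.7 points), with -19.4 to -10.5 points over left-out libraries. Over its 15 alternatives the exact permutation p ran from 0.0286 to 0.2, the highest without E15 KO 1. The 15 genes called between KO and control melanoblasts became 105 with no low-count filter, 8 with thinned cells and 12 with DESeq2 (9 of the 15 shared). They became 30 without the 5 cells and 61 with libraries of at least 1 melanoblast, both chosen after seeing the data, and 1 to 80 over left-out libraries. A minimum of 5 melanoblasts leaves E13 KO 2 as the only KO library, assumed to vary like the controls, and gave 22 (10 of the 15 shared). A minimum of 10 leaves no KO library. The 4 genes called between ages became 71 with at least 10 melanoblasts per library, 17 with DESeq2 (which gave an adjusted p for 188 genes, against 3777 in edgeR), 124 with no filter, 22 with thinned cells and 81 without the 5 cells. They were 127 without E13 WT, 75 without E13 HET, 42 without E15 WT, 88 without E15 HET, and 3 to 127 in all. The replicate block of WT and HET gave 5, and the KO libraries could not be paired, since E13 KO 1 and E15 KO 1 share only a number and hold too few cells. Epithelial calls (1760) became 2890 with no filter and 1048 to 2322 over left-out libraries. Mesenchymal calls (124) became 465 with DESeq2, 729 with no filter and 34 to 169 over left-out libraries. The genes over 2-fold apart from Sox10 cells (1133) were 1158 to 1427 over left-out libraries. The KO change of Kitl in mesenchymal barcodes ran from -0.12 to 0.16 on the log2 scale over left-out libraries, reversing to -0.12 without E15 HET and -0.080 without E15 KO 2. The cause of these changes was not tested. With 1 to 12 melanoblasts per library, a gene with no UMI may still be at 12.3 to 270.2 CPM.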

Other observations

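Ribosomal protein genes were looked at after their values were seen. Between E13 and E15 melanoblasts 80 of 81 tested had a positive log2 change, with a median of 0.41 against -0.03 over all genes, and 1 of them passed edgeR's test. Between KO and control melanoblasts 18 of 81 were positive, with a median of -0.15, and none passed. Krt14, a keratin gene of basal epidermis, had a UMI in 32 of 44 control and 0 of 13 KO melanoblasts, but also in 71.3% of control and 0.9% of KO mesenchymal barcodes. The difference is therefore not particular to melanoblasts, and the part of free RNA in it was not tested.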
